A study of Rattus norvegicus with 16 samples.

Results

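The circadian clock genes of the rat liver were followed here as a set of 10 transcripts, chosen by name: Arntl, Clock, Npas2, Per1, Per2, Per3, Cry1, Nr1d1, Nr1d2 and Dbp. All 10 were among the 17168 genes of the deposited table, and all 10 were among the 11162 that passed the filter on low counts. The tissue came from Sprague Dawley rats with a knockout (KO) of Tspo, which encodes the translocator protein, found on the outer membrane of mitochondria, or from wild-type (WT) rats. The 4 groups of 4 libraries were KO rats on MCD, WT rats on MCD, KO rats on chow and WT rats on chow. MCD is taken here as the usual abbreviation of a methionine- and choline-deficient diet, which the labels do not spell out. It was given for 8 weeks to rats that were 12 weeks old at its start and 20 weeks old when the tissue was taken. The sources used here do not give the sex of the animals, the kind of Tspo mutation or the cells in which it acts, and whole liver was sequenced.

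The mammalian clock is a transcriptional feedback loop that runs in nearly every cell and is reset in the liver mainly by feeding. Arntl (also called Bmal1) pairs with Clock or with its relative Npas2, and the pair switches on genes that carry an E-box, among them the Per and Cry genes, the nuclear receptors Nr1d1 and Nr1d2, and Dbp. The Per and Cry proteins then block that pair, while Nr1d1 and Nr1d2 (Rev-erb alpha and beta) shut down Arntl, Clock and Npas2 through elements they share with the activating Ror receptors. In rodent liver the transcripts of Arntl and Dbp are known to peak at nearly opposite times of day, so their balance in a library moves with the hour at which the tissue was taken. The labels state no such hour, and time of day and group cannot be told apart in these libraries.

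The promoter letters through which the loop is read are shown for the members whose window, 250 bases before to 50 bases after the annotated start, held one of the motifs searched on both strands. The windows are those of RefSeq on the GRCr8 assembly, and 9 of the 10 members had one. Capitals mark TAGGTCA or TAGGTNA, the core read by Ror and Rev-erb receptors, in Arntl; TTATGTAA, a D-box read by Dbp, and CACGTT, a variant E-box, in Per2; and CACGTG, the E-box, in the second annotated start of Nr1d1. The Arntl window (listed by RefSeq as Bmal1) lies at chr1:176766078-176766377, plus strand, the Per2 window at chr9:99496944-99497243, minus strand, and the Nr1d1 window at chr10:84229405-84229704, minus strand.
Arntl: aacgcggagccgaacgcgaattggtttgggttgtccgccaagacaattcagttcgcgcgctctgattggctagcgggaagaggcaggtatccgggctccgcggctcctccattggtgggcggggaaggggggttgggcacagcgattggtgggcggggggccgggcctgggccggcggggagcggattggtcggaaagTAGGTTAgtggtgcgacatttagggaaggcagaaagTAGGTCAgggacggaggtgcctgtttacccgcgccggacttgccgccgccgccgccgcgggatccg
Per2: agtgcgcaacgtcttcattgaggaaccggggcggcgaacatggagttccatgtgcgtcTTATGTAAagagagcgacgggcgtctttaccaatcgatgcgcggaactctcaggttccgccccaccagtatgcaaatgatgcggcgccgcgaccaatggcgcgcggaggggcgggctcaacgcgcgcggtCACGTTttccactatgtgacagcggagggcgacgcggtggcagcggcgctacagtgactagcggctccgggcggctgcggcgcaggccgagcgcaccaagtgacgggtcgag
Nr1d1: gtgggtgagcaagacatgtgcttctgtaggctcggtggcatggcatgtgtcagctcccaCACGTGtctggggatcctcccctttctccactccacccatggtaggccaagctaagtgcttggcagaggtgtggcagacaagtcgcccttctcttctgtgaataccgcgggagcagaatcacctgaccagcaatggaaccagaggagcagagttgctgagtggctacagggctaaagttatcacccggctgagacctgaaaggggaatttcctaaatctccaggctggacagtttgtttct
In Arntl, TAGGTTA began at position -52 from the start and TAGGTCA at -16. In Per2, TTATGTAA began at -192 and CACGTT at -62. In Nr1d1, CACGTG began at -191, and the window of the other annotated start held the variant E-box at -174. Over 33469 promoters of the same length, 8.7% held TAGGTNA, which includes the 2.63% with TAGGTCA, 6.42% held CACGTG, 4.83% held CACGTT and 0.893% held TTATGTAA. TTACGTAA, another D-box, was in 0.12% of all promoters and in none of the members' windows. The windows of Clock, Npas2, Per1, Per3, Nr1d2 and Dbp held none of these letters, which speaks only of these 300 bases.

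The libraries held 8745756 to 15762660 rounded counts. Values below are CPM, counts scaled to a common library total with TMM factors, given for libraries 1 to 4 of a group in that order. Whether each library stands for an animal of its own is not stated, and the p-values cover only library-to-library spread, which may in part be technical. A few libraries stood apart. On the second principal component of log2 CPM over all tested genes (16.14% of the variance), the libraries labelled KO chow 4 and KO MCD 1 scored 63.7 and 44.2, and WT chow 4 scored 33.0 (no other library scored above 9.12). The deleted gene did not follow the label everywhere. Tspo measured 4.42 CPM in the library labelled KO chow 4, within the 3.61 to 5.23 CPM of the WT chow libraries. It measured 4.17 CPM in the library labelled KO MCD 1, above the 0.656 to 1.66 CPM of the other 6 KO libraries and below the 7.63 to 9.34 CPM of the WT MCD libraries. The diet and genotype comparisons of the clock genes and the correlations between them are therefore given with and without these libraries.

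Arntl, the transcription factor at the head of the loop, varied 2.31 to 5.36 times within a group. On MCD, Arntl had 9.87, 26.3, 18.8 and 22.1 CPM in KO MCD libraries and 12.9, 24.2, 24.4 and 6.73 CPM in WT MCD libraries. On chow, it had 6.02, 7.87, 13.1 and 32.3 CPM in KO chow libraries and 17.9, 19.8, 16.6 and 38.3 CPM in WT chow libraries. The 2 chow libraries numbered 4 held the highest levels of the series, and the 4 groups overlapped. Dbp, a D-box transcription factor driven directly by the Arntl and Clock pair, had 17.5, 6.07, 8.80 and 6.24 CPM in KO MCD libraries and 20.9, 6.46, 6.98 and 45.3 CPM in WT MCD libraries. On chow, Dbp had 148, 102, 57.5 and 3.48 CPM in KO chow libraries and 23.1, 37.1, 41.5 and 3.81 CPM in WT chow libraries. Here the order was turned round: the libraries labelled KO chow 4 and WT chow 4 held the lowest Dbp of the series, while KO chow 1, 2 and 3 held the highest. Within KO chow the highest library had 42.5 times the Dbp of the lowest, the widest such range of any member in any group.

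The balance of the pair, the log2 ratio of Dbp to Arntl CPM, put this opposition in 1 value per library. It was 0.83, -2.12, -1.09 and -1.82 in KO MCD libraries and 0.69, -1.90, -1.81 and 2.75 in WT MCD libraries. On chow it was 4.62, 3.70, 2.14 and -3.21 in KO libraries and 0.37, 0.91, 1.32 and -3.33 in WT libraries. The first 3 libraries of each chow group were above 0, and library 4 of each chow group was below every other library. Across the 16 libraries, the deviations of log2 CPM from the group mean were correlated between Arntl and Dbp with a Pearson r of -0.94 and a Spearman rho of -0.96. By permutation of libraries within groups (100000 draws, two-sided, adjusted over the 45 pairs of members), the adjusted p was 0.00045 for r and 0.00072 for rho (unadjusted 4.00e-05 and 8.00e-05). The chow libraries numbered 4 had been singled out for their clock gene levels. The p-values of pairs, here and below, are therefore conditional on that choice and are not independent support for an opposition. Without the 2 libraries farthest from the median of Arntl, r was -0.92, and without both chow libraries numbered 4 it was -0.96 (permutation adjusted p = 0.0171). It was -0.96 across the 13 without the 3 libraries that stood apart (permutation adjusted p = 0.0574), short of the threshold, with a rho of -0.93 (permutation adjusted p = 0.0433).

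**Figure D1:**
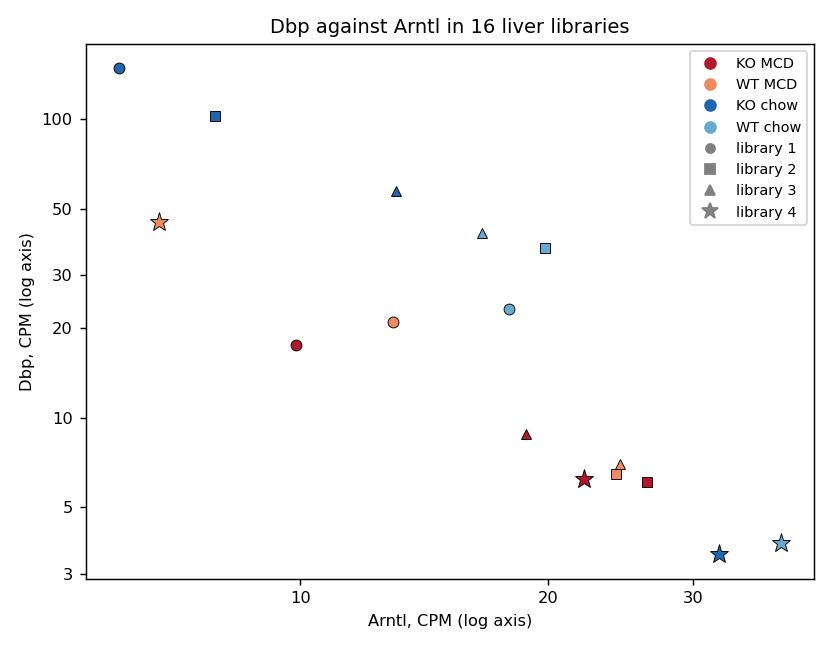
Dbp (y axis, CPM, log axis) against Arntl (x axis, CPM, log axis) in each of the 16 libraries, with colour for the group and shape for the library number. The points run from high Dbp and low Arntl in KO chow 1 (148 and 6.02 CPM) to low Dbp and high Arntl in WT chow 4 (3.81 and 38.3 CPM), with libraries of every group along the way.

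Clock, the DNA-binding partner of Arntl and the member with the narrowest range over all 16 libraries, followed Arntl over a smaller span. Clock had 37.7, 56.3, 53.7 and 60.5 CPM in KO MCD libraries and 51.7, 56.5, 53.1 and 50.7 CPM in WT MCD libraries. On chow, Clock had 36.2, 39.5, 42.6 and 63.9 CPM in KO chow libraries and 44.0, 47.6, 49.6 and 60.7 CPM in WT chow libraries. Its highest level was in the library labelled KO chow 4, and the groups overlapped. Npas2, the alternative partner, had 5.91, 23.3, 22.8 and 14.2 CPM in KO MCD libraries and 11.5, 21.5, 16.6 and 6.92 CPM in WT MCD libraries. On chow, Npas2 had 7.61, 6.89, 11.5 and 21.7 CPM in KO chow libraries and 23.2, 17.7, 24.6 and 26.2 CPM in WT chow libraries. KO chow 1, 2 and 3 lay below all 4 WT chow libraries for Npas2, and the library labelled KO chow 4 lay among them.

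Nr1d1 and Nr1d2, the nuclear receptors that repress Arntl, stood on the Dbp side. Nr1d1 had 34.6, 31.5, 11.4 and 33.7 CPM in KO MCD libraries and 50.2, 21.1, 33.4 and 39.4 CPM in WT MCD libraries. On chow, Nr1d1 had 84.8, 90.9, 64.8 and 8.43 CPM in KO chow libraries and 97.1, 105, 86.8 and 4.66 CPM in WT chow libraries. The first 3 libraries of both chow groups (64.8 to 105 CPM) were above every MCD library, and library 4 of both chow groups was below every MCD library. Nr1d2 had 51.6, 35.4, 37.6 and 39.7 CPM in KO MCD libraries and 57.9, 34.8, 42.6 and 59.3 CPM in WT MCD libraries. On chow, Nr1d2 had 79.2, 66.4, 65.7 and 34.1 CPM in KO chow libraries and 47.8, 59.1, 63.0 and 14.4 CPM in WT chow libraries. WT chow 4 was again the lowest of the series, and the library labelled KO chow 4 was lowest in its group.

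The log2 ratio of Nr1d1 to Arntl CPM was 1.81, 0.26, -0.72 and 0.61 in KO MCD libraries and 1.96, -0.20, 0.45 and 2.55 in WT MCD libraries. On chow it was 3.82, 3.53, 2.31 and -1.94 in KO libraries and 2.44, 2.41, 2.39 and -3.04 in WT libraries. WT chow 1, 2 and 3 lay between 2.39 and 2.44, while the fourth library of that group stood far below them.

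The Per genes and Cry1, the inhibitors of the loop, were not alike. Per1, which is also induced quickly by glucocorticoids and other signals outside the loop, had 14.3, 26.3, 55.7 and 31.3 CPM in KO MCD libraries and 41.0, 30.2, 23.1 and 51.8 CPM in WT MCD libraries. On chow, Per1 had 5.34, 10.8, 8.02 and 2.81 CPM in KO chow libraries and 25.4, 10.2, 6.79 and 2.28 CPM in WT chow libraries. All 4 KO MCD libraries were above all 4 KO chow libraries, and WT MCD libraries overlapped with WT chow libraries only through WT chow 1. Per2 had 13.1, 11.9, 34.0 and 11.0 CPM in KO MCD libraries and 20.7, 21.4, 13.2 and 33.5 CPM in WT MCD libraries. On chow, Per2 had 31.1, 29.7, 19.8 and 20.5 CPM in KO chow libraries and 20.8, 22.8, 31.5 and 27.9 CPM in WT chow libraries. KO MCD 3 stood above the other KO MCD libraries, and all groups overlapped.

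Per3 had the widest range of the Per genes within WT chow. It had 4.66, 3.38, 4.44 and 3.48 CPM in KO MCD libraries and 11.7, 4.50, 2.91 and 11.1 CPM in WT MCD libraries. On chow, Per3 had 7.95, 7.00, 3.27 and 0.535 CPM in KO chow libraries and 4.45, 4.46, 8.09 and 0.381 CPM in WT chow libraries. Both chow libraries numbered 4 fell below every other library, and each of these levels rests on 4 rounded counts. Cry1, the repressor whose transcript is known to peak late in the cycle, had 2.16, 4.87, 5.53 and 4.64 CPM in KO MCD libraries and 3.18, 7.25, 6.73 and 4.33 CPM in WT MCD libraries. On chow, Cry1 had 4.54, 4.26, 4.46 and 7.76 CPM in KO chow libraries and 5.75, 5.67, 5.92 and 19.3 CPM in WT chow libraries. Both chow libraries numbered 4 held the highest Cry1 of the series, and the library labelled KO MCD 1 the lowest.

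**Figure D2:**
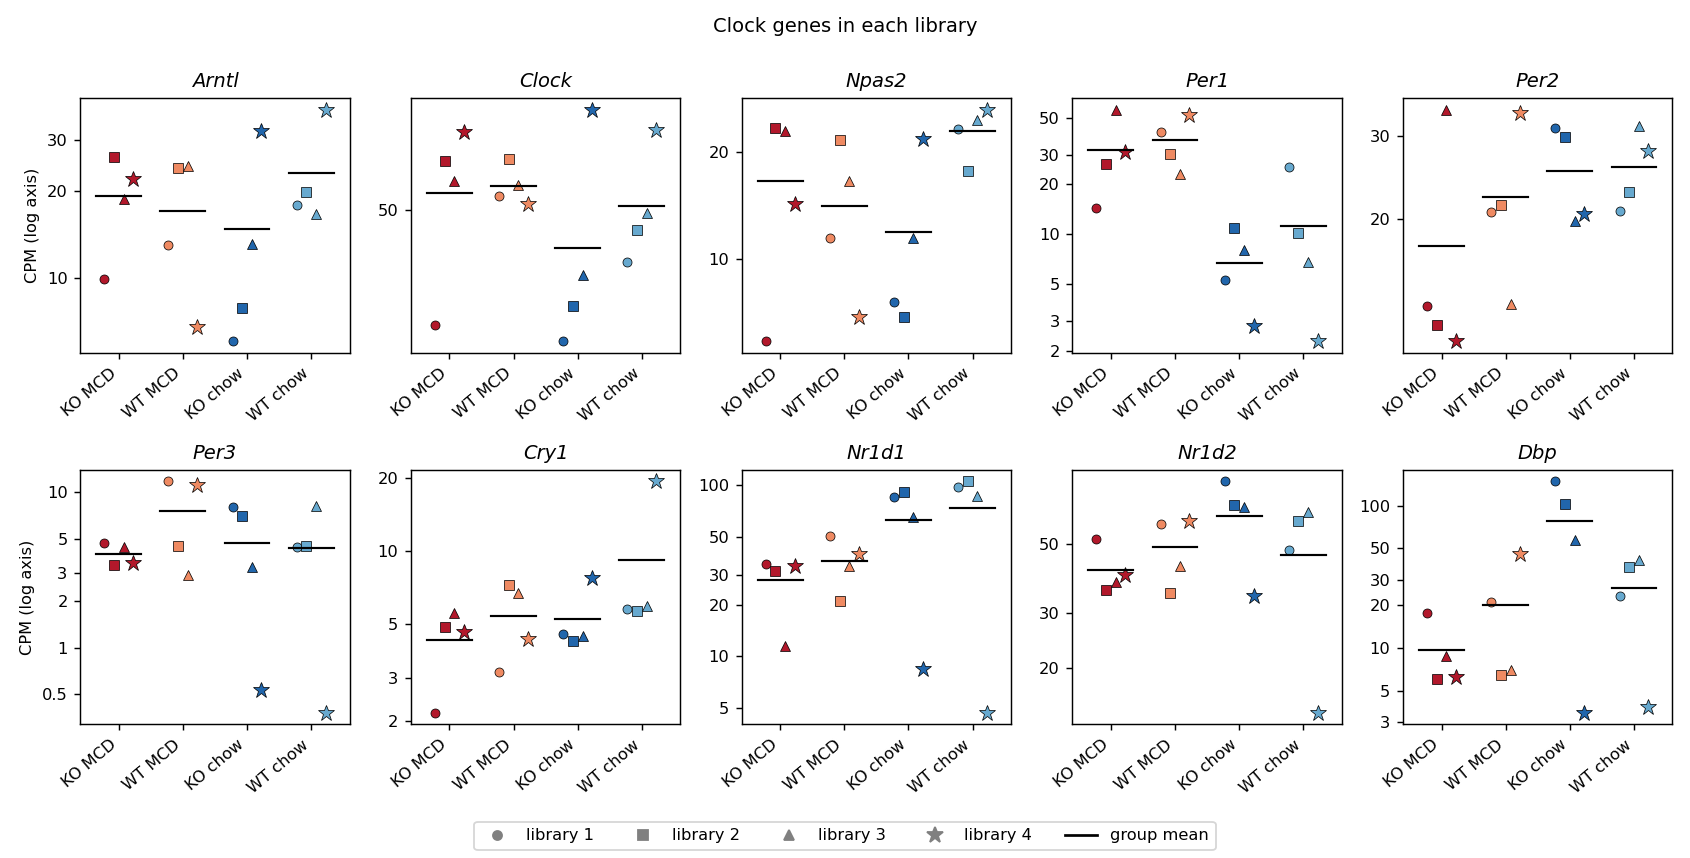
CPM (log axis, 1 panel per gene) of the 10 clock genes in each library, by group, with shape for the library number and a bar at the group mean. In the chow groups, library 4 (star) is at the top of its group for Arntl, Clock, Npas2 and Cry1 and at the bottom for Per1, Per3, Nr1d1, Nr1d2 and Dbp; on MCD the stars keep no such place.

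Taken in pairs, the members fell into an Arntl side and a Dbp side, a grouping made after the values were seen and given as a description. All 6 pairs among Arntl, Clock, Npas2 and Cry1 had a positive r of the deviations (0.69 to 0.86), and so had all 6 pairs among Dbp, Nr1d1, Nr1d2 and Per3 (0.83 to 0.94). All 16 pairs between the sides were negative (-0.94 to -0.53). Without both chow libraries numbered 4, the ranges were 0.68 to 0.85, 0.29 to 0.90 and -0.96 to -0.30. Without the 3 libraries that stood apart (an omission chosen after seeing the data), they were 0.25 to 0.81, 0.26 to 0.88 and -0.96 to -0.063, and each of these 28 pairs kept its sign. In all, 28 of the 45 pairs had a permutation adjusted p of r under 0.05 across 16 libraries, 11 had across 14 and 0 had across 13 (13 at an unadjusted p under 0.05, and 5 with an adjusted p of rho under 0.05). The members share library depth and scaling, and the CPM of all genes in a library share 1 total. Over all tested genes, the deviations of WT chow 4 and the library labelled KO chow 4 were correlated at 0.51. The share of passing pairs among other genes was not computed, so these counts are not read as particular to the clock genes.

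Among single pairs, Nr1d2 and Dbp had an r of 0.87 across 16 libraries (rho 0.89, permutation adjusted p = 0.00045 for r and 0.00045 for rho, r 0.85 without the 2 farthest libraries). It was 0.90 across the 14 without both chow libraries numbered 4 (permutation adjusted p = 0.0171) and 0.88 across the 13 without the 3 libraries that stood apart (permutation adjusted p = 0.102). Per3 and Dbp had an r of 0.94 across 16 libraries (rho 0.93, permutation adjusted p = 0.00054 for r and 0.00072 for rho, r 0.88 without the 2 farthest libraries). It was 0.85 across the 14 without both chow libraries numbered 4 (permutation adjusted p = 0.0294) and 0.87 across the 13 without the 3 libraries that stood apart (permutation adjusted p = 0.0846). Arntl and Npas2, which the Rev-erb receptors are known to repress together, had an r of 0.86 across 16 libraries (rho 0.84, permutation adjusted p = 0.0018 for r and 0.00225 for rho, r 0.79 without the 2 farthest libraries). It was 0.85 across the 14 without both chow libraries numbered 4 (permutation adjusted p = 0.0294) and 0.81 across the 13 without the 3 libraries that stood apart (permutation adjusted p = 0.117). Those 3 pairs passed across 16 and across 14 libraries and not across 13 by r; by rho, Nr1d2 and Dbp passed there as well (permutation adjusted p = 0.0433). The 2 Rev-erb genes had an r of 0.93 across 16 libraries (rho 0.79, permutation adjusted p = 0.00542 for r and 0.00938 for rho, r 0.75 without the 2 farthest libraries). It was 0.54 across the 14 without both chow libraries numbered 4 (permutation adjusted p = 0.189) and 0.47 across the 13 without the 3 libraries that stood apart (permutation adjusted p = 0.272). Nr1d1 and Dbp had an r of 0.83 across 16 libraries (rho 0.69, permutation adjusted p = 0.0157 for r and 0.0169 for rho, r 0.57 without the 2 farthest libraries). It was 0.38 across the 14 without both chow libraries numbered 4 (permutation adjusted p = 0.402) and 0.29 across the 13 without the 3 libraries that stood apart (permutation adjusted p = 0.543). The correlations of Nr1d1 with Nr1d2 and with Dbp were thus weaker, and short of the threshold, without the 2 chow libraries numbered 4. Their rho across 14 libraries was 0.57 and 0.52 (permutation adjusted p = 0.153 and 0.197). Per1 was in none of the pairs that passed, with r from -0.47 to 0.66 across 16 libraries and -0.28 to 0.38 across 14, and -0.44 to 0.35 across 13. Per2 was in none across 16 libraries (r from -0.42 to 0.35), and across 14 it passed with Per3 alone (r 0.63, permutation adjusted p = 0.0294), with an r of 0.67 across the 13 without the 3 libraries that stood apart (permutation adjusted p = 0.0574).

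**Figure D3:**
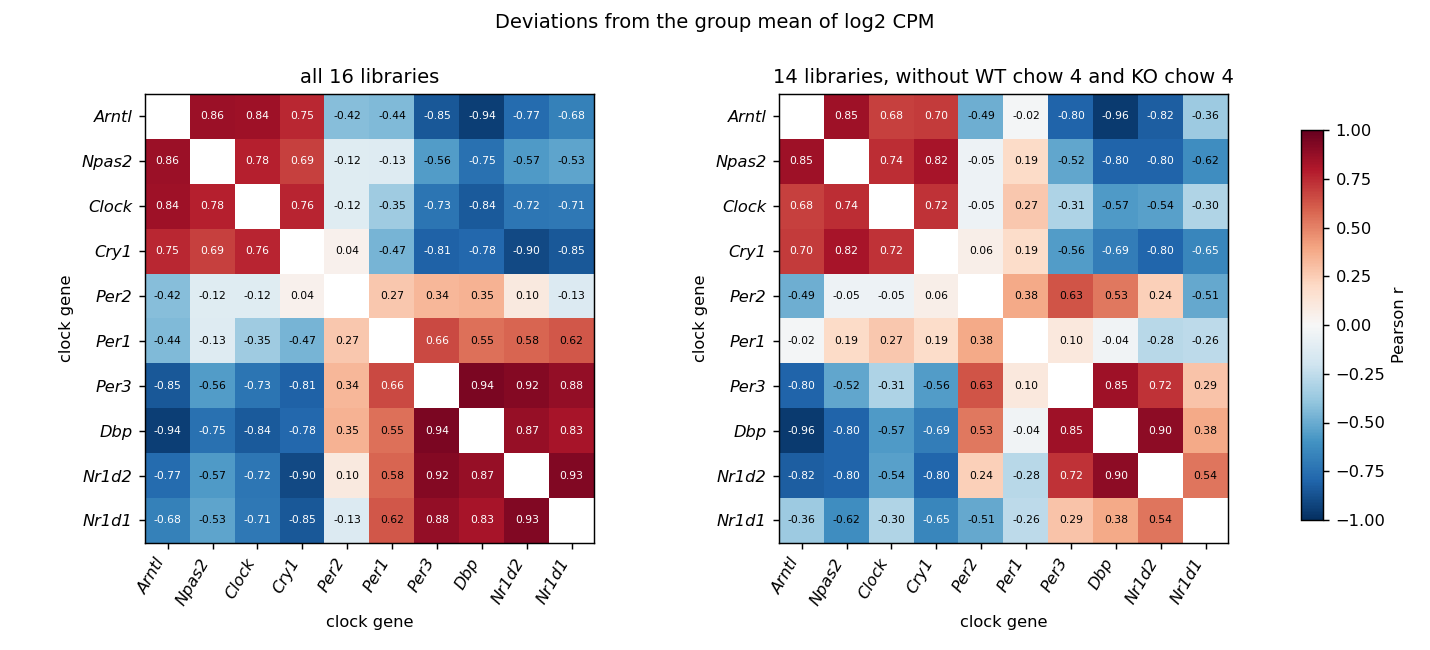
Pearson r between the deviations of log2 CPM from the group mean for each pair of clock genes, across all 16 libraries (left) and across the 14 libraries without WT chow 4 and the library labelled KO chow 4 (right); both axes list the genes and colour gives r. Blocks of positive r hold Arntl, Npas2, Clock and Cry1 at one corner and Per3, Dbp, Nr1d2 and Nr1d1 at the other, and the second block is paler on the right (lowest r 0.29, against 0.83 on the left).

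In KO rats, MCD was set against chow to ask what the diet did without a normal Tspo gene. Per1 rose, to 31.9 ± 17.4 CPM in KO MCD libraries against 6.75 ± 3.45 CPM in KO chow libraries (mean ± SD, n = 4 each). Its log2 fold was 2.23 ± 0.58 (SE), a fold of 4.68, with an adjusted p of 0.00676 in edgeR's quasi-likelihood test (Benjamini-Hochberg over 11162 genes). Dbp fell, with 9.66 ± 5.39 CPM in KO MCD libraries against 77.7 ± 61.7 CPM in KO chow libraries (SD, n = 4 each) and a log2 fold of -3.01 ± 0.88 (adjusted p = 0.0134). The groups overlapped for Dbp because the library labelled KO chow 4 lay below every KO MCD library. In whole tissue, fewer cells that make a transcript and less of it per cell cannot be told apart.

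Those were the 2 of 10 clock genes called in KO rats, 1 in each direction, when 40.4% of all tested genes were called (21.9% higher and 18.5% lower). With 10 members, nothing is read from that share. Without both chow libraries numbered 4, 6 of 10 were called against 39.6% of all genes. Per1 was the 1 member whose groups did not overlap, against 31.6% of all genes (17.6% higher). The median log2 fold of the members was -0.26, and that of all tested genes 0.041. The other 8 did not pass: Arntl at 0.39 ± 0.50 (adjusted p = 0.547), Clock at 0.19 ± 0.19 (adjusted p = 0.42) and Npas2 at 0.48 ± 0.43 (adjusted p = 0.377) for the activators. Among the inhibitors, Per2 was at -0.53 ± 0.34 (adjusted p = 0.222), Per3 at -0.25 ± 0.66 (adjusted p = 0.782) and Cry1 at -0.28 ± 0.42 (adjusted p = 0.616). The Rev-erb genes were at -1.16 ± 0.70 (adjusted p = 0.19) for Nr1d1 and -0.58 ± 0.35 (adjusted p = 0.194) for Nr1d2.

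In WT rats the same comparison called Per1 alone, which rose to 36.6 ± 12.6 CPM in WT MCD libraries against 11.2 ± 10.0 CPM in WT chow libraries (SD, n = 4 each). Its log2 fold was 1.70 ± 0.56 (SE, adjusted p = 0.0274 in edgeR), a fold of 3.25. The call rests on single libraries: leaving out WT MCD 1, WT MCD 4, WT chow 2 or WT chow 3 gave adjusted p-values of 0.0525, 0.077, 0.0625 and 0.0781. This was 1 of 10 clock genes when 34.1% of all tested genes were called (18.2% higher), and no member had groups that did not overlap, against 38% of all genes. Dbp was not called in WT rats, at 19.9 ± 18.2 CPM in WT MCD libraries and 26.4 ± 16.96 CPM in WT chow libraries (SD, n = 4 each). Its log2 fold was -0.39 ± 0.83 (adjusted p = 0.738).

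The other WT values were also short of the threshold. The activators were at -0.45 ± 0.49 (adjusted p = 0.502) for Arntl, 0.071 ± 0.19 (adjusted p = 0.791) for Clock and -0.70 ± 0.42 (adjusted p = 0.206) for Npas2. Per2 was at -0.21 ± 0.34 (adjusted p = 0.658), Per3 at 0.82 ± 0.65 (adjusted p = 0.341) and Cry1 at -0.77 ± 0.41 (adjusted p = 0.15). Nr1d1 was at -1.03 ± 0.69 (adjusted p = 0.26) and Nr1d2 at 0.08 ± 0.35 (adjusted p = 0.877). The median log2 fold of the 10 members was -0.30 in WT rats, and that of all genes -0.0022. Without scaling factors, 5 clock genes were called in KO rats, with Arntl, Clock, Npas2 and Per1 higher and Dbp lower, and Clock and Per1 were called higher in WT rats. All calls then split into 6447 higher and 405 lower in KO rats and 4806 higher and 508 lower in WT rats (2447 and 2067, and 2031 and 1778, with TMM factors). The median gene shifted by 0.77 in KO rats and 0.53 in WT rats, and the fold of every gene between diets is relative to that shift.

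**Figure D4:**
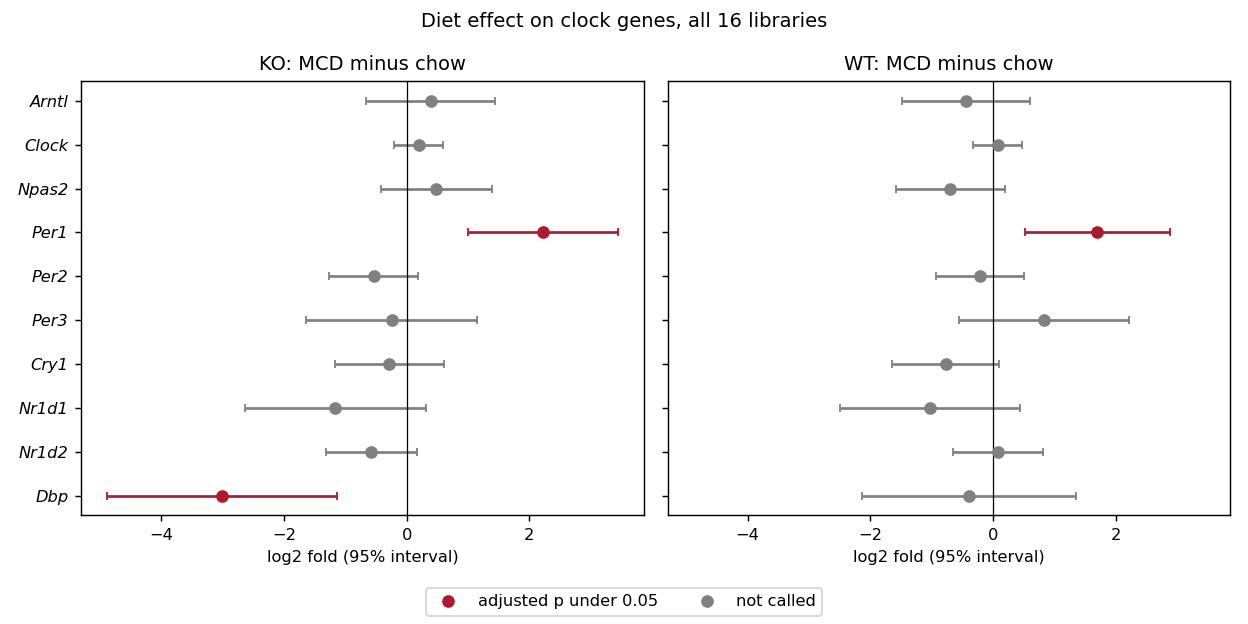
Log2 fold of MCD over chow with its 95% interval for each clock gene in KO rats (left) and WT rats (right), all 16 libraries in the fit; red marks an adjusted p under 0.05. Per1 is to the right of 0 in both panels (2.23 in KO rats and 1.70 in WT rats), and Dbp is clear of 0 on the left side in KO rats alone (-3.01, against -0.39 in WT rats with an interval that spans 0).

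Leaving out both chow libraries numbered 4 changed which clock genes were called, in KO rats most. These libraries had been singled out for their clock gene levels, so the values below describe the libraries that remain, the adjusted p-values are conditional on that choice, and none is independent support for a difference. In KO rats, 6 of 10 were called (39.6% of all genes in that fit). Nr1d1 fell by 1.53 on the log2 scale (adjusted p = 0.00175) and Nr1d2 by 0.78 (adjusted p = 0.00494). Arntl rose, at 1.09 ± 0.42 (adjusted p = 0.0488), and so did Clock, at 0.40 ± 0.15 (adjusted p = 0.0429). Per1 stayed higher, at 1.98 ± 0.49 (adjusted p = 0.00536), and Dbp lower, at -3.41 ± 0.59 (adjusted p = 0.000517). In WT rats, 2 of 10 were called (42.1% of all genes in that fit), with Nr1d1 lower at -1.42 ± 0.31 (adjusted p = 0.00247) beside Per1 at 1.35 ± 0.47 (adjusted p = 0.03).

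With all 4 libraries numbered 4 left out, 5 of 10 were called in KO rats (32.6% of all genes), the same as above but for Clock at 0.32 ± 0.16 (adjusted p = 0.135). In WT rats, Nr1d1 at -1.47 ± 0.36 (adjusted p = 0.00713) and Dbp at -1.57 ± 0.50 (adjusted p = 0.0253) were then called (36.2% of all genes), and Per1 was not, at 1.13 ± 0.50 (adjusted p = 0.0905). Without the 3 libraries that stood apart on the second component (a choice made after seeing the data), 7 of 10 were called in KO rats against 51.6% of all genes. These were Npas2 at 1.21 ± 0.36 (adjusted p = 0.0139) and the 6 named above. In WT rats, 2 of 10 were called against 50.5%, with Per1 at 1.34 ± 0.46 (adjusted p = 0.0297) and Nr1d1 at -1.42 ± 0.33 (adjusted p = 0.00391). Leaving out WT chow 4 alone brought Nr1d1 past the threshold in WT rats, at -1.42 (adjusted p = 0.049). Leaving out KO MCD 3 alone brought Per2 past the threshold in KO rats, at -1.08 (adjusted p = 0.00837). The Per1 and Dbp calls in KO rats held under each of these omissions.

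**Figure D5:**
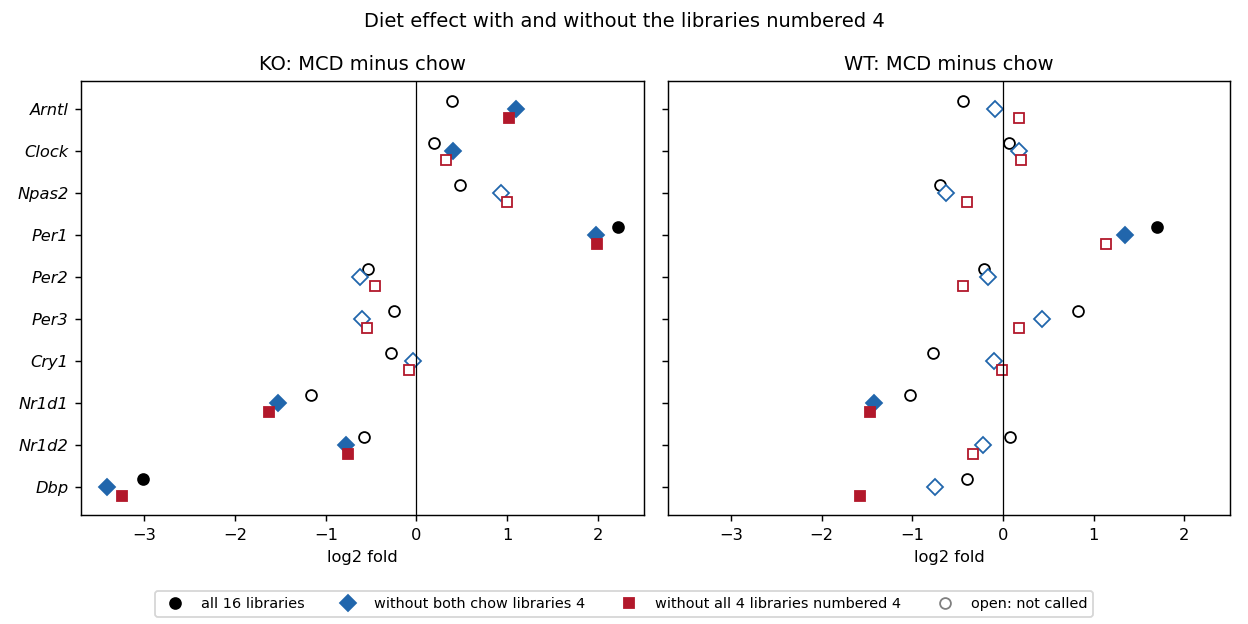
Log2 fold of MCD over chow for each clock gene in KO rats (left) and WT rats (right), with all 16 libraries (circles), without both chow libraries numbered 4 (diamonds) and without all 4 libraries numbered 4 (squares); filled symbols have an adjusted p under 0.05. In KO rats Arntl, Nr1d1 and Nr1d2 turn from open to filled when the libraries are left out, and in WT rats the Per1 symbol turns open in the last fit (1.13).

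KO rats were compared with WT rats on each diet to ask what the loss of Tspo did by itself. On chow, 0 of 10 clock genes were called by edgeR, when 0.00896% of all tested genes were (1 gene, LOC500124, lower in KO rats and named after its value was seen). At an unadjusted p under 0.05 there was 1 clock gene, among 1153 genes in all, and DESeq2 also called 0 clock genes (23 genes in all). That gene was Npas2, with 11.9 ± 6.82 CPM in KO chow libraries and 22.9 ± 3.69 CPM in WT chow libraries (SD, n = 4 each), and a log2 fold of -0.95 ± 0.43 (adjusted p = 0.478). Cry1 followed with -0.82 ± 0.42 (adjusted p = 0.486) and Dbp with 1.57 ± 0.84 (adjusted p = 0.488).

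KO chow 1, 2 and 3 had 57.5 to 148 CPM of Dbp, and WT chow 1, 2 and 3 had 23.1 to 41.5 CPM. With all 4 libraries of each group, the levels overlapped. Among libraries 1 to 3 alone, 6 of the 10 members did not overlap between KO and WT, against 28.1% of all genes, and since library 4 was set aside for its clock gene levels nothing is read from that count. With both chow libraries numbered 4 left out, Dbp was at 1.60 ± 0.62 (adjusted p = 0.219) and Npas2 at -1.32 ± 0.46 (adjusted p = 0.191), both short of the threshold in a fit that called 0.115% of all genes. Without the 3 libraries that stood apart, 4.6% of all genes were called and still 0 of the 10 clock genes, with Npas2 at -1.32 ± 0.37 (adjusted p = 0.0586).

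On MCD, 0 of 10 clock genes were called between KO and WT libraries (0% of all genes). None had an unadjusted p under 0.05 (81 genes in all had), and DESeq2 called 0 clock genes of 0 in all. Per3 had the smallest p, with 3.99 ± 0.654 CPM in KO MCD libraries and 7.54 ± 4.47 CPM in WT MCD libraries (SD, n = 4 each). Its log2 fold was -0.92 ± 0.64 (adjusted p = 1). Without the library labelled KO MCD 1, 0 of 10 clock genes and 0 genes in all were called, the median of the 10 folds was -0.17, and Dbp had the widest fold at -1.51 ± 0.94 (adjusted p = 1), against -1.05 ± 0.84 with it. Clock and Per1 changed sign there, to 0.10 and 0.045. No member's groups were free of overlap on MCD or on chow, against 0.797% and 4.34% of all genes. The KO over WT log2 folds had a median SE of 0.45 on MCD and 0.46 on chow. Differences well above that size could go uncalled with these libraries, as Dbp at 1.57 and Npas2 at -0.95 did on chow. The medians of the 10 folds were -0.28 on MCD and -0.19 on chow, against 0.0019 and -0.017 for all tested genes.

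The difference between the diet effects, KO minus WT, was tested as an interaction. By edgeR, 0 of 10 clock genes and 0% of all genes were called, with 1 clock gene and 330 genes in all at an unadjusted p under 0.05. DESeq2 called 0 clock genes and 1 gene in all. The clock gene was Dbp, with a difference of -2.62 ± 1.18 on the log2 scale (adjusted p = 1). Npas2 differed by 1.18 ± 0.60 (adjusted p = 1), from folds of 0.48 in KO rats and -0.70 in WT rats that did not pass. The median of the 10 differences was -0.0069, and that of all genes 0.018. The call of Dbp in KO rats and not in WT rats is therefore not a shown difference between the genotypes.

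Other regulators of the clock were read from a list of 16, of which 10 were in the table and 9 passed the filter. On MCD, 3 rose and 2 fell in KO rats (median log2 fold -0.063, all genes 0.041), and 3 rose and 1 fell in WT rats (median 0.055, all genes -0.0022). These are 5 of 9 against a background of 40.4% in KO rats and 4 of 9 against 34.1% in WT rats. This list and those below were chosen with earlier results of these data known. Their shares and medians beside the background are a description and not support for a response of a list. Csnk1e, a kinase that marks Per proteins for breakdown, had 9.46 to 12.9 CPM in KO MCD libraries against 1.61 to 3.72 CPM in KO chow libraries. Its fold, here and below as log2 ± SE from edgeR, was 1.91 ± 0.23 (adjusted p = 2.16e-05) in KO rats and 1.63 ± 0.22 (adjusted p = 7.94e-05) in WT rats. Nfil3, the repressor that competes with Dbp for D-boxes, had 12.0 to 26.5 CPM in KO MCD libraries against 27.4 to 51.7 CPM in KO chow libraries. It fell in both genotypes, at -1.19 ± 0.28 (adjusted p = 0.00361) in KO rats and -1.73 ± 0.29 (adjusted p = 0.000348) in WT rats.

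Tef, a D-box activator related to Dbp, fell in KO rats, at -0.89 ± 0.24 (adjusted p = 0.00844), and had -0.22 ± 0.24 (adjusted p = 0.49) in WT rats. No gene of the list of regulators was called as an interaction. Timeless, whose role in mammals is mainly in DNA replication, rose in KO rats, at 0.95 ± 0.19 (adjusted p = 0.00134), and in WT rats, at 0.91 ± 0.19 (adjusted p = 0.0021). Csnk1d, the sister kinase of Csnk1e, was the remaining call, at 0.50 ± 0.15 (adjusted p = 0.0136) in KO rats and 0.41 ± 0.15 (adjusted p = 0.0395) in WT rats. The same genes were called without both chow libraries numbered 4 (39.6% of all genes in KO rats and 42.1% in WT rats). Without all 4 libraries numbered 4, Csnk1d was not called, at 0.42 ± 0.16 (adjusted p = 0.0643) in KO rats and 0.38 ± 0.16 (adjusted p = 0.0847) in WT rats. Its call was also lost in KO rats without KO MCD 4 (adjusted p = 0.0516), and in WT rats without any 1 of WT MCD 1, WT MCD 2, WT MCD 3, WT MCD 4, WT chow 2, WT chow 3 or WT chow 4 (adjusted p up to 0.111). Without scaling factors the split in KO rats was 4 higher and 0 lower, with Nfil3 at -0.47 (adjusted p = 0.132) and Tef at -0.19 (adjusted p = 0.536). Over all 11162 genes that split was 6447 higher and 405 lower.

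A list of 18 known clock outputs of the liver had 16 tested, of which 7 rose and 1 fell in KO rats, and 7 rose and 2 fell in WT rats. These are 8 of 16 against 40.4% of all genes in KO rats and 9 of 16 against 34.1% in WT rats. Their median log2 fold was 0.97 in KO rats (all genes 0.041) and 1.05 in WT rats (all genes -0.0022). The 9 calls in WT rats include Insig2, lower at -1.12 (adjusted p = 0.0377) and at -0.35 without WT chow 4 (adjusted p = 0.287). That call was also lost without any 1 of WT MCD 1, WT MCD 2 or WT MCD 4. Lpin1, a phosphatase of lipid synthesis and a coactivator, had 58.8 to 199 CPM in KO MCD libraries against 11.1 to 24.4 CPM in KO chow libraries. It rose by 2.93 ± 0.35 (adjusted p = 2.44e-05) in KO rats and 2.73 ± 0.35 (adjusted p = 4.92e-05) in WT rats. Usp2, a deubiquitinating enzyme with a strong daily rhythm, rose by 1.96 ± 0.24 (adjusted p = 2.56e-05) in KO rats and 2.87 ± 0.25 (adjusted p = 1.82e-06) in WT rats. Its levels did not overlap between diets in either genotype, with 10.0 to 16.0 CPM in KO MCD libraries against 2.67 to 3.72 CPM in KO chow libraries, and 10.4 to 18.6 CPM in WT MCD libraries against 1.01 to 2.41 CPM in WT chow libraries.

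Mthfd1l, a mitochondrial enzyme of folate metabolism, rose by 3.14 ± 0.46 (adjusted p = 0.000107) in KO rats and 3.15 ± 0.45 (adjusted p = 0.000114) in WT rats. Wee1, the kinase that holds back entry into mitosis, rose by 1.70 ± 0.33 (adjusted p = 0.00107) in KO rats and 1.53 ± 0.32 (adjusted p = 0.00192) in WT rats. Cyp7a1, the rate-limiting enzyme of bile acid synthesis, rose by 1.49 ± 0.40 (adjusted p = 0.00815) in KO rats and 2.25 ± 0.41 (adjusted p = 0.000783) in WT rats, with 205 to 358 CPM in WT MCD libraries against 30.2 to 104 CPM in WT chow libraries. The list depends on scaling in its split: without scaling factors, 12 were higher and 0 lower in KO rats and 11 higher and 0 lower in WT rats. Over all 11162 genes it was then 6447 higher and 405 lower in KO rats and 4806 higher and 508 lower in WT rats. With upper quartile factors, 8 were higher and 0 lower in KO rats, and 2836 higher and 1686 lower over all genes. The 1 lower call in KO rats, Nampt, had a log2 fold of 0.062 without scaling factors. Without all 4 libraries numbered 4, Cyp7a1 was not called in KO rats, at 0.84 ± 0.36 (adjusted p = 0.0866), and the Nampt call there was lost without any 1 of KO MCD 2, KO MCD 3, KO MCD 4, KO chow 1, KO chow 2 or KO chow 3 (adjusted p up to 0.134). With both chow libraries numbered 4 left out, the counts were 7 higher and 1 lower in KO rats and 8 higher and 1 lower in WT rats. Of all genes, 39.6% were called in that fit in KO rats and 42.1% in WT rats.

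Per1 also answers to glucocorticoids, and 9 genes known for that response were read beside it. On MCD, 4 rose and 0 fell in KO rats (median 1.15), and 3 rose and 1 fell in WT rats (median 0.77). These are 4 of 9 against 40.4% of all genes in KO rats and 4 of 9 against 34.1% in WT rats, and the median of all genes was 0.041 in KO rats and -0.0022 in WT rats. Fkbp5, a cochaperone of the glucocorticoid receptor, had 18.6 to 85.8 CPM in KO MCD libraries against 13.6 to 16.5 CPM in KO chow libraries, and its fold was 1.92 ± 0.32 (adjusted p = 0.000293). In WT rats it was 1.45 ± 0.31 (adjusted p = 0.00235). Zbtb16, a zinc-finger repressor, rose by 4.90 ± 0.77 (adjusted p = 0.000208) in KO rats, where its chow libraries ranged from 0 to 2.08 CPM, and 3.28 ± 0.67 (adjusted p = 0.00165) in WT rats. The kinase Sgk1 and the metallothionein Mt1a rose in KO rats, at 1.15 ± 0.39 (adjusted p = 0.0263) and 1.42 ± 0.55 (adjusted p = 0.048), and were at -0.51 ± 0.38 (adjusted p = 0.304) and 0.77 ± 0.54 (adjusted p = 0.276) in WT rats. Tsc22d3 was at 0.49 ± 0.36 (adjusted p = 0.282) in KO rats and rose in WT rats, at 1.08 ± 0.36 (adjusted p = 0.0309). The phosphatase Dusp1 was at -0.73 ± 0.44 (adjusted p = 0.195) in KO rats and fell in WT rats, at -1.55 ± 0.45 (adjusted p = 0.0145), with an adjusted p of 0.0546 there without scaling factors. The calls of Sgk1, Mt1a, Tsc22d3 and Dusp1 rest on single libraries. In KO rats the Sgk1 call was lost without any 1 of KO MCD 3, KO MCD 4, KO chow 2 or KO chow 3 (adjusted p up to 0.146), and the Mt1a call without any 1 of the library labelled KO MCD 1, KO MCD 4, KO chow 1, KO chow 2 or KO chow 3 (adjusted p up to 0.147). In WT rats the Tsc22d3 call was lost without any 1 of WT MCD 1, WT MCD 4, WT chow 1, WT chow 2 or WT chow 3 (adjusted p up to 0.0933), and the Dusp1 call without WT MCD 2 or WT chow 3 (adjusted p up to 0.0655). These differences between genotypes in what was called were not called as interactions. Tat, Klf9 and Mt2A were called in neither genotype. Mean Tat was 670 CPM in KO MCD and 687 CPM in KO chow libraries, and 682 CPM in WT MCD and 689 CPM in WT chow libraries. The part of glucocorticoids in the Per1 difference was not tested.

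Without both chow libraries numbered 4, that list gave 6 higher and 0 lower in KO rats and 5 higher and 1 lower in WT rats. Of all genes, 39.6% were called in that fit in KO rats and 42.1% in WT rats. Without scaling factors the list gave 7 higher and 0 lower in KO rats and 4 higher and 0 lower in WT rats. Over all 11162 genes it was then 6447 higher and 405 lower in KO rats and 4806 higher and 508 lower in WT rats. Of 9 heat shock and cold inducible genes, whose liver rhythm follows body temperature, 1 rose and 3 fell in KO rats (median -0.40), and 1 rose and 0 fell in WT rats (median -0.051). These are 4 of 9 against 40.4% of all genes in KO rats and 1 of 9 against 34.1% in WT rats, with the same medians of all genes as above. Rbm3, a cold inducible RNA-binding protein, rose by 1.23 ± 0.34 (adjusted p = 0.00942) in KO rats and 0.99 ± 0.34 (adjusted p = 0.0328) in WT rats. The chaperone genes Dnajb1, Hsp90aa1 and Hspa5 fell in KO rats, at -0.91 ± 0.20 (adjusted p = 0.00213), -0.97 ± 0.28 (adjusted p = 0.0126) and -0.61 ± 0.20 (adjusted p = 0.0231), and were at -0.22 ± 0.20 (adjusted p = 0.401), -0.72 ± 0.28 (adjusted p = 0.056) and -0.051 ± 0.20 (adjusted p = 0.863) in WT rats. Those 3 calls were lost without scaling factors (3 higher and 0 lower, against the split of all genes given above), where Hspa5 was at 0.094. Hspa5 was also not called with upper quartile factors (adjusted p = 0.0672), nor without any 1 of KO MCD 2, KO chow 2 or KO chow 3 (adjusted p up to 0.0716). Hsp90aa1 was not called without all 4 libraries numbered 4, at -0.85 ± 0.31 (adjusted p = 0.0518). The Rbm3 call in WT rats was lost without any 1 of WT MCD 1, WT MCD 3, WT MCD 4, WT chow 1 or WT chow 2 (adjusted p up to 0.0851). Without both chow libraries numbered 4, the counts were 1 higher and 5 lower in KO rats and 1 higher and 1 lower in WT rats (39.6% and 42.1% of all genes). No gene of the heat and cold list was called as an interaction with all 16 libraries.

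Feeding is the main signal that sets the liver clock, and 10 genes of the fasting and feeding response were read for that reason. On MCD, 3 rose and 5 fell in KO rats (median -0.87), and 3 rose and 1 fell in WT rats (median -0.41). These are 8 of 10 against 40.4% of all genes in KO rats and 4 of 10 against 34.1% in WT rats, with the same medians of all genes as above. Ppargc1a, a coactivator of fasting metabolism, rose by 3.83 ± 0.54 (adjusted p = 8.60e-05) in KO rats and 2.93 ± 0.49 (adjusted p = 0.000366) in WT rats. Igfbp1, a binding protein that insulin suppresses, rose by 2.86 ± 0.62 (adjusted p = 0.00221) in KO rats and 2.72 ± 0.62 (adjusted p = 0.00342) in WT rats. Fasn, the fatty acid synthase, fell in KO rats, at -1.74 ± 0.34 (adjusted p = 0.00113), with 105 to 391 CPM in KO MCD libraries against 565 to 985 CPM in KO chow libraries, and was at -0.15 ± 0.33 (adjusted p = 0.75) in WT rats. Angptl4, an inhibitor of lipoprotein lipase, fell in KO rats, at -1.66 ± 0.42 (adjusted p = 0.0054), and was at -0.67 ± 0.41 (adjusted p = 0.212) in WT rats. No gene of this list was called as an interaction, so these are not shown differences between the genotypes.

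Cpt1a, the gate of mitochondrial fatty acid entry, rose by 0.85 ± 0.28 (adjusted p = 0.0253) in KO rats and 0.88 ± 0.28 (adjusted p = 0.0243) in WT rats. Pck1, a gluconeogenic enzyme, was at -0.58 ± 0.30 (adjusted p = 0.131) in KO rats and fell in WT rats, at -0.83 ± 0.30 (adjusted p = 0.0413), with an adjusted p of 0.054 there under upper quartile factors and 0.39 without scaling factors. The Cpt1a call was lost in KO rats without both chow libraries numbered 4, at 0.67 ± 0.27 (adjusted p = 0.0619). Without all 4 libraries numbered 4 it was lost in both genotypes, at 0.50 ± 0.24 (adjusted p = 0.134) in KO rats and 0.60 ± 0.24 (adjusted p = 0.0687) in WT rats. Leaving out 1 library, it was lost in KO rats without KO MCD 4, KO chow 3 or the library labelled KO chow 4 (adjusted p up to 0.0907), and in WT rats without WT MCD 4, WT chow 3 or WT chow 4 (adjusted p up to 0.0943). The Pck1 call in WT rats was lost without any 1 of WT MCD 2, WT MCD 3, WT MCD 4, WT chow 1, WT chow 2 or WT chow 3 (adjusted p up to 0.111). Without scaling factors, 3 were higher and 2 lower in KO rats and 3 higher and 0 lower in WT rats. Over all 11162 genes it was then 6447 higher and 405 lower in KO rats and 4806 higher and 508 lower in WT rats. Without both chow libraries numbered 4, 2 were higher and 3 lower in KO rats and 3 higher and 1 lower in WT rats (39.6% and 42.1% of all genes). Between KO and WT rats on either diet, 0 genes of these 5 lists were called. On chow, the number at an unadjusted p under 0.05 was 0 of 9 clock regulators, 1 of 16 outputs, 3 of 9 heat and cold genes, 2 of 9 glucocorticoid genes and 2 of 10 feeding genes, and on MCD it was 0 in every list. Among all 11162 tested genes it was 1153 on chow and 81 on MCD, and nothing is read from the counts of these short lists. Without the 3 libraries that stood apart, 7 of the 53 genes tested from these lists were called on chow (4 higher and 3 lower in KO rats), when 4.6% of all genes were. They were in 4 of the 5 lists, with 4 of the 7 (3 higher and 1 lower) in the heat and cold list and 1 in each of the output, glucocorticoid and feeding lists. Named after their values were seen, the last 3 were Cdkn1a (lower in KO rats), Sgk1 (lower) and Fasn (higher).

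Outside the members, the genes whose deviations from the group mean were most like those of Arntl over 16 libraries, among 8227 genes with a mean of at least 5 CPM, were Ppard (r 0.93), Slc9a9 (r 0.92), Pnkd (r 0.91), Wdr91 (r 0.90) and Slc6a6 (r 0.89). Over the 14 libraries without both chow libraries numbered 4, their r was 0.89, 0.85, 0.90, 0.83 and 0.80 in that order. Ppard, a nuclear receptor of lipid metabolism, led the list. Most like Dbp were Hsd17b2 (r 0.93), Ifrd2 (r 0.91), Cidec (r 0.91), Cebpg (r 0.90) and Slc35d2 (r 0.90), with 0.74, 0.72, 0.66, 0.65 and 0.60 over the 14 libraries. Hsd17b2 inactivates sex steroids, and Cidec coats lipid droplets. These are descriptions of the libraries, which share depth and scaling, and the genes were picked for their likeness.

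Some cell type markers moved with the diet beside these results. Over all genes, 40.4% were called in KO rats (21.9% higher and 18.5% lower) and 34.1% in WT rats (18.2% higher and 15.9% lower). With so few markers per cell type, counts near those shares are not read as a result. The summed level of 7 hepatocyte markers was 102300 to 123300 CPM in KO MCD libraries against 176600 to 235600 CPM in KO chow libraries, and 96730 to 135800 CPM in WT MCD libraries against 166800 to 209000 CPM in WT chow libraries. Of the 7, 3 fell in each genotype. Most of the sum was Alb, with 65854 to 77857 CPM in KO MCD libraries against 125133 to 167237 CPM in KO chow libraries. Mean Apoa1 and Cps1 were higher on MCD, though not called, and the other means were lower. Apoa1 had 2570 CPM against 2163 CPM in KO rats and 2669 CPM against 2346 CPM in WT rats. Cps1 had 1729 CPM against 1494 CPM in KO rats and 1709 CPM against 1244 CPM in WT rats. The sum of 4 bile duct markers was 74.8 to 118 CPM in KO MCD libraries against 17 to 32.0 CPM in KO chow libraries, and 71.8 to 130.3 CPM in WT MCD libraries against 16.6 to 38.6 CPM in WT chow libraries, with 2 of 4 higher in each genotype. All 5 red blood cell markers fell in both, with sums of 113 to 163 CPM in KO MCD libraries against 562 to 4807 CPM in KO chow libraries, and 94.1 to 257 CPM in WT MCD libraries against 1242 to 1840 CPM in WT chow libraries. Of 8 stellate and myofibroblast markers 3 rose in KO rats and 2 in WT rats, and of 6 endothelial markers 3 rose in KO rats, while 2 rose and 1 fell in WT rats. Of 8 macrophage markers, 2 rose and 3 fell in KO rats and 2 rose and 2 fell in WT rats. Of 4 lymphocyte markers tested, 1 rose in KO rats, and 1 rose and 1 fell in WT rats. No measured marker was at 0 in more than 2 libraries, and Cd3e alone was at 0 in any. Between KO and WT rats, 0 markers were called on either diet, when 0.00896% of all genes were on chow and 0% on MCD. The part of cell composition in the Per1 and Dbp differences was not tested.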

How the data were processed

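Total RNA of rat liver was sequenced in 16 Kapa stranded mRNA libraries, per the labels' protocols. Per the submitters' processing notes, the tools included Bowtie2 2.1.0 and RSEM 1.2.15 with the rn6 build. The deposited expected counts per gene (RSEM, 88.9% whole numbers) were rounded to whole counts. A second deposited signal table equals those rounded counts times 1 constant per library (202017 of 202017 positive values, tolerance 1e-06) and ran with the CPM used here (ratio 0.9865 to 1.014), so it was used only as that check.

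Groups came from sample titles. The main test was edgeR 4.0.16 (R 4.3.3), robust quasi-likelihood with TMM factors and filterByExpr, 1 fit of all 4 groups, 5 contrasts and Benjamini-Hochberg over 11162 genes at a threshold of 0.05. DESeq2 1.42.0, other scaling, no filter, a replicate block and omissions of libraries were alternatives. Libraries held 8745756 to 15762660 counts. The spread between libraries, not these totals, limits the precision of the folds: the common biological coefficient of variation was 28%. Correlations used log2 CPM (prior count 2). No pair of libraries in a group agreed within sampling noise (chi-square per gene 15.3 to 383.9). The 10 members and all lists were chosen with earlier results of these data known. Named list genes are up to 4 called with the smallest p per list and contrast, with the values of the same gene in the other genotype beside them. Insig2, Nampt, Tat, Klf9, Mt2A and Cdkn1a were named outside that rule. Columns of both tables carry bare sample numbers and were matched through the sample descriptions, which repeat those numbers. Scripts were tested on simulated data. Genes of the heat and cold list called between KO and WT on chow without the 3 libraries that stood apart are counted and not reported here by name.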

Additional observations from a re-analysis of the deposited data

Results flagged for a closer look

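Of 48 sets of 4 libraries examined (10 genes and both log2 ratios in 4 groups), 6 had a library far from the other 3, the gap to the nearest over the whole range being above Dixon's 95% critical value, which chance gives in about 1 of 20 sets. Of the 6, 4 are the chow libraries numbered 4, which had been singled out for their clock genes, so that rate does not bear on them.

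In WT chow, library 4 had 38.34 CPM of Arntl, against 16.61 to 19.8 CPM in the other 3, and 19.31 CPM of Cry1, against 5.671 to 5.923 CPM. The log2 ratio of Nr1d1 to Arntl in that library was -3.04, against 2.386 to 2.44. The library labelled KO chow 4 had 7.764 CPM of Cry1, against 4.265 to 4.543 CPM in the other KO chow libraries.

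In KO MCD, library 3 had 34.05 CPM of Per2, against 10.99 to 13.07 CPM in the other 3, and 11.42 CPM of Nr1d1, against 31.54 to 34.56 CPM.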

How the results depend on the processing

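The number of clock genes called between diets was 2 in KO rats (40.4% of all genes) and 1 in WT rats (34.1% of all genes). It was the same with DESeq2, no filter, upper quartile factors, only the groups compared, a replicate block and a term for the libraries numbered 4. Between genotypes and for the difference of the diet effects it was 0 under every alternative. In KO rats the count was 5 without scaling factors, when 6852 genes in all were called. It was 6 without both chow libraries numbered 4 (39.6% of all genes) and 5 without all libraries numbered 4 (32.6%). It was 5 without the libraries labelled KO chow 4 and KO MCD 1 (4879 genes in all), and 7 without those and WT chow 4 (51.6% of all genes). Leaving out 1 library at a time gave 2 to 3 (3347 to 5343 genes in all). In WT rats it was 2 without scaling factors (5314 genes in all) and 2 without both chow libraries numbered 4 (42.1% of all genes). It was 2 without all numbered 4 (36.2%), 2 without the 3 libraries (50.5%), and 0 to 2 leaving out 1 library at a time (2832 to 3875 genes in all). The number of all genes called changed with the setting as well, and nothing is read from the change in the count. The cause was not tested.

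Directions turned for values short of the threshold. In WT rats without scaling factors, Arntl was at 0.091, Per2 at 0.35 and Dbp at 0.17. In WT rats, Arntl was at 0.18 without all libraries numbered 4, and Nr1d2 at -0.22, -0.33 and -0.22 without both chow libraries numbered 4, all numbered 4 and the 3 libraries. In KO rats without scaling factors, Per2 was at 0.20, Per3 at 0.45, Cry1 at 0.48 and Nr1d2 at 0.12. Cry1 in KO rats was at 0.18 without the libraries labelled KO chow 4 and KO MCD 1, and at 0.18 without the 3 libraries. Leaving out 1 library at a time, Clock ran from -0.0028 to 0.17 and Nr1d2 from -0.22 to 0.27 in WT rats, and Per3 from -0.60 to 0.12 in KO rats.

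With library number as a replicate block the counts were 2 in KO rats (4238 genes in all), 1 in WT rats (3655 genes in all) and 0 elsewhere. The numbers share no stated animal or day: 7 of 24 same-numbered pairs had deviations correlated above 0.1, and 4 of 16 libraries correlated best with their own number. The highest of the 24 correlations was 0.51, between WT chow 4 and the library labelled KO chow 4. The libraries numbered 4 carry the last sample numbers of the series. Low counts limit Per3, with 4 in each of 2 libraries.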
